A study of Saccharomyces cerevisiae with 36 samples.

Results

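The mitochondrial ribosomal protein genes of Saccharomyces cerevisiae were taken as every gene on the arrays whose symbol starts with MRPL, MRPS, MRP or RSM followed by a digit, which gave 66 of the 5338 genes measured. Of these, 37 encode proteins of the large subunit and 28 were assigned to the small subunit. The remaining gene, MRP8 (YKL142W), carries such a name but has no known role in the ribosome, and it was kept because the rule is one of symbols. The arrays compared BY4742 wild-type cells with cells deleted for MSN5 (msn5) or for MTR10 (mtr10), each held 30 min in medium that contained amino acids (fed) or lacked them (starved). MSN5 and MTR10 encode nuclear transport receptors of the importin-beta family. From each culture type total RNA, RNA of pooled polysome fractions and RNA of pooled non-polysome fractions were hybridised to Affymetrix yeast arrays, which made 18 groups of 2 biological replicates and 36 arrays in all. All cultures, the fed ones included, had first grown at 30 degrees C in synthetic medium until their OD600 was 0.35, were pelleted and resuspended, and received cycloheximide at 100 µg/ml before harvest.

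The mitochondrial ribosome translates the few messages of the mitochondrial genome, most of which encode membrane subunits of the respiratory chain and the ATP synthase. Nearly all of its proteins are encoded in the nucleus, made on cytosolic ribosomes and imported, and many of them carry an amino-terminal targeting signal. Some descend from proteins of bacterial ribosomes, while others have no bacterial counterpart and were added in the mitochondrial lineage. In yeast, messages for these proteins are known as a class bound by the RNA-binding protein Puf3, and their levels are known to follow the growth conditions of the cell.

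Values are log2 signals from robust multi-array averaging (RMA), which gives every array the same distribution, so each level is relative to the other messages on that array. Differences between the polysome and non-polysome pools are therefore relative as well and do not give the share of a message in a pool. A gene was called when limma's p, adjusted by Benjamini and Hochberg over all 5338 genes, was below 0.05. Changes are given in log2 units ± the standard error of the fit, with 2 arrays in each group. Mean signals of the 66 genes lay between 9.41 and 12.43, and signals of different probe sets do not rank the transcripts.

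Deleted genes were read first. MSN5 measured 11.23 and 11.28 in fed wild-type total RNA and lay between 3.64 and 4.75 on 10 of the 12 msn5 arrays, but it read 6.85 and 7.23 on the fed non-polysome arrays of msn5. MTR10 measured 11.09 and 11 in fed wild-type total RNA, between 3.64 and 4.67 on 10 of the mtr10 arrays, and 5.48 and 5.17 on the fed non-polysome arrays of mtr10. In both mutants the fed non-polysome arrays thus stood apart, and every comparison that uses them is named as such below. All other comparisons kept their counts within 1.5 times when those 4 arrays were left out.

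The median signal of the 66 genes showed the starvation response before any test. In wild-type total RNA it was 11.06 and 11.10 in the fed arrays and 10.53 and 10.68 in the starved arrays. In wild-type polysome RNA it was 11.25 and 11.23 when fed and 10.45 and 10.56 when starved, and in wild-type non-polysome RNA 11.33 and 11.29 against 11.15 and 10.92. Fed and starved arrays did not overlap in any of these 3 kinds of wild-type RNA, and the gap was widest in polysomes. In total RNA of msn5 the medians were 11.12 and 11.07 when fed and 10.62 and 10.55 when starved. In total RNA of mtr10 they were 11.09 and 11.04 against 10.94 and 10.93, which is a smaller gap than in the other strains. In polysome RNA the mtr10 medians were 10.88 and 10.95 when fed and 10.50 and 10.63 when starved, and both fed mtr10 values lay below all 4 fed polysome values of the other strains.

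**Figure D1:**
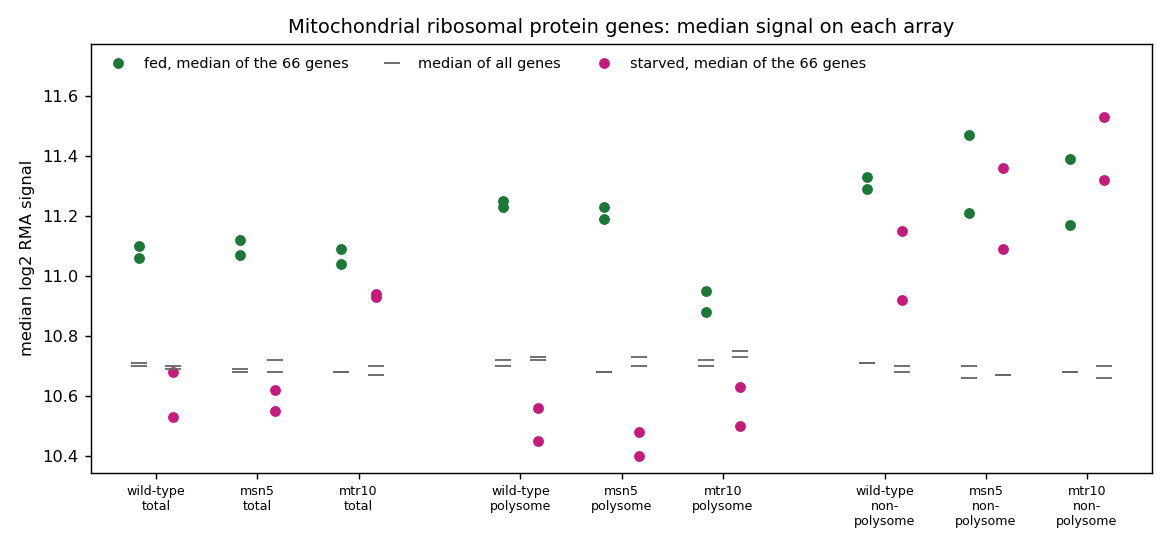
Median log2 RMA signal of the 66 genes on each of the 36 arrays (coloured points, 2 per group; y axis in log2 units), with the median of all 5338 genes on the same array as a grey bar. Starved points lie below fed points in total and polysome RNA of all 3 strains, with the smallest gap in mtr10 total RNA (11.09 and 11.04 against 10.94 and 10.93), while the grey bars stay between 10.66 and 10.75.

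In wild-type total RNA most mitochondrial ribosomal protein genes fell within the 30 min of starvation. Of the 66 genes 46 fell and 2 rose, while 32.8% of all 5338 genes fell and 31.4% rose. The median change was -0.43 for the 66 genes and -0.03 for all genes. Among large subunit genes 28 of 37 fell, with a median of -0.58, and among small subunit genes 18 of 28 fell, with a median of -0.42. By ancestry, 17 of 23 large subunit genes with a bacterial homologue fell, as did 11 of 14 without one, and in the small subunit 10 of 17 and 8 of 11. In MAS5 signals, with 1 array left in each of these groups, the count that fell was 24.

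Among large subunit genes, MRPL37 (YBR268W), a mitochondria-specific protein, read 11.54 and 11.54 in fed and 10.36 and 10.61 in starved total RNA. MRPL44 (YMR225C), also without a bacterial counterpart, went from 11.31 and 11.41 to 10.22 and 10.45. Both sets of starved arrays lay below the fed ones, and limma gave -1.05 ± 0.20 (adjusted p = 0.000108) for MRPL37 and -1.02 ± 0.18 (adjusted p = 4.78e-05) for MRPL44. MRPL39 (YML009C), the counterpart of bacterial L33, read 11.78 and 11.85 fed and 10.68 and 10.92 starved, a change of -1.02 ± 0.20 (adjusted p = 0.000132, limma). MRPL51 (YPR100W), a mitochondria-specific protein of the large subunit, read 10.30 and 10.34 fed and 9.27 and 9.55 starved, a change of -0.91 ± 0.12 (adjusted p = 8.88e-07, limma). No starved array of these genes reached a fed one.

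In the small subunit RSM27 (YGR215W), which has no bacterial counterpart, fell furthest of the 66 genes. It read 9.79 and 9.71 in fed and 8.46 and 8.63 in starved wild-type total RNA, so the arrays were far apart. The change was -1.21 ± 0.15, or 2.31-fold lower (adjusted p = 5.19e-07, limma). RSM19 (YNR037C), the counterpart of bacterial S19, read 11.12 and 11.11 fed and 9.96 and 10.21 starved, again without overlap. Its change of -1.03 ± 0.33 had a wide error (adjusted p = 0.00992, limma), and without the first starved array it was -0.91 with an adjusted p of 0.0699.

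Both genes that rose in wild-type total RNA encode counterparts of bacterial proteins. RSM10 (YDR041W), of the S10 family of the small subunit, read 11.76 and 11.68 fed and 12.18 and 12.17 starved, a rise of 0.45 ± 0.09 (adjusted p = 0.000188, limma). MRP7 (YNL005C), the counterpart of bacterial L27 near the peptidyl transferase centre, read 10.51 and 10.51 fed and 10.77 and 10.77 starved, a rise of 0.26 ± 0.10 (adjusted p = 0.0332, limma). In both genes the starved arrays lay above the fed ones. The call of MRP7 was lost when any 1 of its 4 arrays was left out, with adjusted p up to 0.0985. In MAS5 signals, with 1 array in each group, the rise of RSM10 was 0.17 and that of MRP7 0.05, neither of them called.

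The other 18 genes were not called, and their changes ran from -0.32 for MRP17 (YKL003C) to 0.12 for MRPL10 (YNL284C). They included MRPS12, whose product corresponds to the decoding-centre protein S12 of bacteria, MRP51, MRPL22, MRPL28 and RSM7. MRP8, the gene with no known ribosomal role, was among them and read 11.98 and 11.97 fed and 12.13 and 11.88 starved.

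Other genes of mitochondrial gene expression were read from lists of textbook roles. Of 13 measured mitochondrial ribosomal protein genes that carry other symbols, 9 fell and 0 rose in wild-type total RNA, with a median of -0.46. MNP1, the counterpart of bacterial L7/L12, changed by -1.22 ± 0.14 (adjusted p = 8.91e-08, limma), IMG1 by -0.77 ± 0.16 and IMG2 by -0.81 ± 0.17. Of 8 mitochondrial translation factors 6 fell and 1 rose, with a median of -0.59. RRF1, the ribosome recycling factor, changed by -0.91 ± 0.09, the elongation factor TUF1 by -0.66 ± 0.09 and the elongation factor MEF1 by -0.73 ± 0.12, each with an adjusted p under 0.05 in limma. The remaining lists were mixed. Of 16 genes of mitochondrial tRNA charging 4 fell and 2 rose, of 14 translational activators 3 fell and 4 rose, and of 30 nuclear genes of the respiratory chain and ATP synthase 7 fell and 7 rose. Among 11 genes of mitochondrial ribosome assembly and RNA, 4 fell and 1 rose. For the cytosolic machinery, 65 of 66 ribosome biogenesis genes fell with a median of -1.49, and 72 of 127 cytosolic ribosomal protein genes fell with a median of -0.35.

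In wild-type polysome RNA 46 of 66 fell and 4 rose, beside 33.2% and 36.1% of all genes, with a median of -0.59 against 0.02 over all genes. RSM19 read 11.18 and 11.31 in fed and 9.43 and 9.77 in starved polysomes, a change of -1.65 ± 0.33 (adjusted p = 0.000154, limma). MRPL20 (YKR085C), a large subunit protein without a bacterial counterpart, read 11.42 and 11.31 against 9.95 and 10.04, a change of -1.37 ± 0.15 (adjusted p = 5.16e-08, limma). In both genes the starved arrays were more than 1 log2 unit below the fed ones. MRPL50 (YNR022C), the counterpart of bacterial L9, read 11.67 and 11.63 fed and 10.40 and 10.41 starved, a change of -1.24 ± 0.18 (adjusted p = 2.31e-06, limma). Of the 46 genes that fell in total RNA, 41 also fell in polysome RNA, which is 89.1% of either list, and these comparisons share no arrays. Over all genes the overlap was 84.1% of those that fell in total and 83.2% of those that fell in polysome RNA.

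The rises in polysome RNA were small. MRP7 read 10.71 and 10.74 fed and 11.01 and 11.22 starved, a rise of 0.39 ± 0.10 (adjusted p = 0.00184, limma), and RSM10 read 11.90 and 11.94 against 12.12 and 12.25, a rise of 0.26 ± 0.09 (adjusted p = 0.0143, limma). MRPL22 (YNL177C), whose bacterial counterpart L22 lines the exit tunnel and which is named after its value was seen, rose by 0.24 ± 0.09 (adjusted p = 0.024, limma). The starved arrays of MRP7 and RSM10 lay above the fed ones, but for RSM10 the MAS5 signals gave the opposite sign, -0.14, and the call was lost without the first fed or the second starved array (adjusted p = 0.0709 and 0.131). RSM22 (YKL155C), a methyltransferase-like protein tied to the small subunit, read 9.30 and 9.33 fed and 9.44 and 10.29 starved. Its replicates differed most when starved, and its change of 0.55 ± 0.21 (adjusted p = 0.0248, limma) was 0.12 without the second starved array and was not called without either fed array (adjusted p = 0.085 and 0.0681).

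In wild-type non-polysome RNA 28 of the 66 genes fell and 6 rose, beside 36% and 31.1% of all genes, with a median of -0.23. MRPS16 (YPL013C), the counterpart of bacterial S16, read 12.26 and 11.89 fed and 11.05 and 10.91 starved, a change of -1.10 ± 0.13 (adjusted p = 2.44e-07, limma). MRPL51 read 10.21 and 10.11 fed and 9.17 and 9.04 starved, a change of -1.06 ± 0.12 (adjusted p = 9.92e-08, limma), and RSM27 changed by -0.99 ± 0.15 (adjusted p = 6.97e-06, limma). All starved arrays of these 3 genes lay below the fed ones. RSM10 read 12.01 and 11.999 fed and 12.89 and 12.87 starved, a rise of 0.87 ± 0.09, or 1.83-fold higher (adjusted p = 3.76e-08, limma). MRPL36 (YBR122C), the counterpart of bacterial L31, read 11.29 and 11.24 fed and 11.84 and 11.65 starved, a rise of 0.48 ± 0.10 (adjusted p = 0.000239, limma). MRPL23 (YOR150W), the counterpart of bacterial L13, rose by 0.41 ± 0.14 there (adjusted p = 0.015, limma) and fell by 0.51 in polysome RNA, and the rise was not called without the second fed or the first starved array (adjusted p = 0.112 and 0.114).

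**Figure D2:**
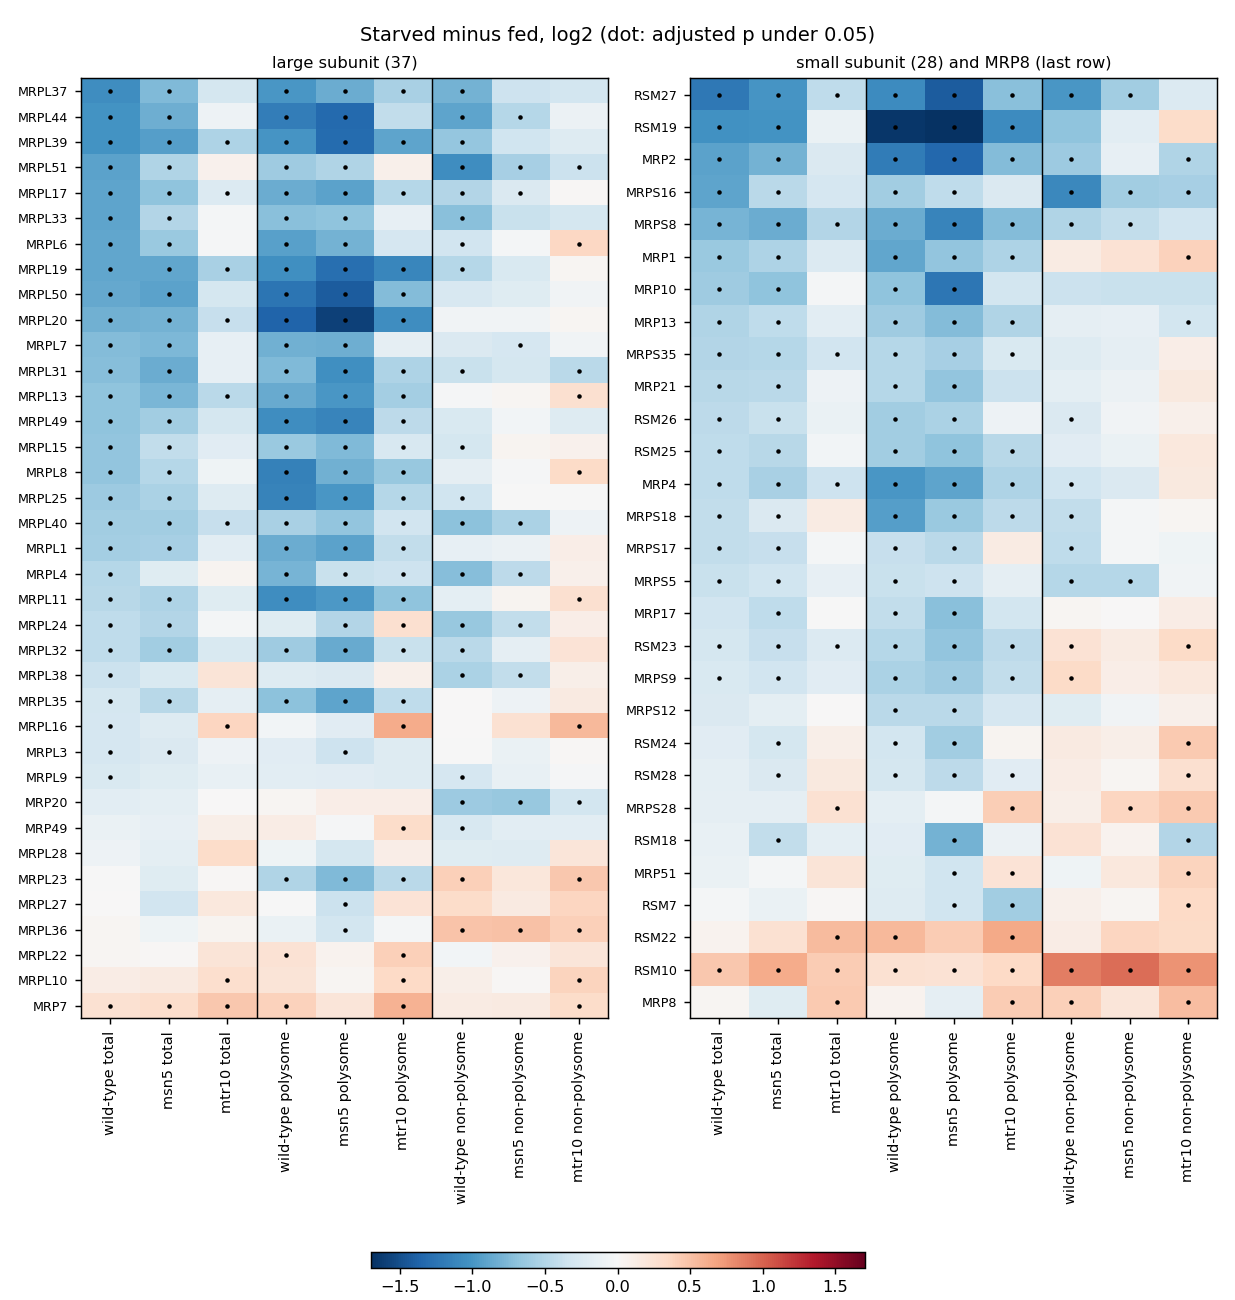
Change on starvation (log2, starved minus fed; blue lower, red higher in starved cells) of the 37 large subunit genes, the 28 small subunit genes and MRP8 in total, polysome and non-polysome RNA of the 3 strains, ordered by the change in wild-type total RNA, with a dot where limma's adjusted p was under 0.05. The mtr10 total column is paler, with 11 genes that fell against 46 in each of the other strains, and RSM10 is red in all 9 columns.

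In msn5 total RNA 46 of the 66 genes fell and 2 rose, beside 32.2% and 28.8% of all genes, with a median of -0.45. Of the 46 genes that fell in wild-type total RNA 42 also fell in msn5, which is 91.3% of either list, beside 83.7% of the wild-type list and 85.3% of the msn5 list over all genes. RSM27 read 10.06 and 9.93 fed and 8.78 and 9.19 starved in msn5, a change of -1.01 ± 0.15 (adjusted p = 8.44e-06, limma), and MRPL39 read 12.02 and 11.84 against 11.01 and 10.97, a change of -0.94 ± 0.20 (adjusted p = 0.000372, limma). RSM10 read 11.85 and 11.69 fed and 12.50 and 12.32 starved, a rise of 0.64 ± 0.09 (adjusted p = 4.47e-06, limma). The fed and starved arrays did not overlap in these genes. RSM19 changed by -1.02 ± 0.33 and MRP7 by 0.30 ± 0.10, and both calls were lost without the first fed array (adjusted p = 0.0808 and 0.0709) or the second starved one (adjusted p = 0.102 and 0.0941).

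In msn5 polysomes 53 of the 66 genes fell and 1 rose, beside 32.6% and 34.2% of all genes, with a median of -0.67. All 46 genes that fell in wild-type polysomes were among the 53, which is 86.8% of the msn5 list, beside 85% of the wild-type and 86.6% of the msn5 list over all genes. MRPL20 read 11.22 and 11.38 fed and 9.65 and 9.77 starved, a change of -1.59 ± 0.15 or 3.01-fold lower (adjusted p = 7.08e-09, limma). RSM19 read 11.27 and 11.34 against 9.67 and 9.59, a change of -1.67 ± 0.33 (adjusted p = 0.000146, limma), and MRPL50 changed by -1.42 ± 0.18 (adjusted p = 4.65e-07, limma). The 1 gene that rose, RSM10, read 11.97 and 12.03 fed and 12.28 and 12.21 starved, and its rise of 0.24 ± 0.09 (adjusted p = 0.0231, limma) was 0.01 in MAS5 signals and was not called without the first fed or the first starved array (adjusted p = 0.115 and 0.112).

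In mtr10 total RNA fewer of the genes changed. Of the 66 genes 11 fell and 7 rose, beside 23.9% and 24.8% of all genes, with a median of -0.09 against 0.01 over all genes, and the share that fell was thus below that of all genes. The 11 that fell were all among the 46 of wild-type, which is 23.9% of the wild-type list, beside 59.9% of the wild-type and 82.2% of the mtr10 list over all genes. Leaving out any 1 of the 4 arrays left 4 or 5 of them called. MRPL19 (YNL185C), the counterpart of bacterial L11, read 10.69 and 10.60 fed and 10.10 and 10.07 starved, a change of -0.56 ± 0.17 (adjusted p = 0.0112, limma), while MRPL39 changed by -0.53 ± 0.20 and MRPS8 (YMR158W), the counterpart of bacterial S8, by -0.50 ± 0.16 (adjusted p = 0.0326 and 0.0155). Fed and starved arrays did not overlap in these 3 genes, but the call of MRPL39 was lost without any 1 of the 4 arrays, that of MRPL19 without the first fed or second starved array, and that of MRPS8 without the second fed or first starved array, with adjusted p up to 0.138, 0.0686 and 0.121. In MAS5 signals MRPL19 changed by -0.35 and MRP8, below, by 0.17, and neither was called. Those that rose were MRP7, which read 10.21 and 10.13 fed and 10.68 and 10.57 starved (0.46 ± 0.10, adjusted p = 0.000782, limma), MRP8, which read 11.78 and 11.88 against 12.29 and 12.26 (0.44 ± 0.10, adjusted p = 0.000579, limma), RSM10, RSM22, MRPL10, MRPL16 and MRPS28. In MRP7 and MRP8 both starved arrays lay above the fed ones. RSM22 rose by 0.54 ± 0.21 (adjusted p = 0.0359, limma), and its call was lost without any 1 of the 4 arrays, with adjusted p up to 0.167.

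In mtr10 polysomes 33 of the 66 genes fell and 11 rose, beside 27.2% and 32.7% of all genes, with a median of -0.32. MRPL19 read 10.22 and 10.31 fed and 9.04 and 9.27 starved, a change of -1.11 ± 0.17 (adjusted p = 1.31e-05, limma), and MRPL20 read 10.89 and 10.93 against 9.79 and 9.92, a change of -1.06 ± 0.15 (adjusted p = 4.02e-06, limma). In both genes the arrays of the conditions were about 1 log2 unit apart. RSM19 changed by -1.07 ± 0.33, a call lost without the second fed or the first starved array (adjusted p = 0.0711 and 0.103). MRPL16 (YBL038W), the counterpart of bacterial L16, read 10.91 and 10.96 fed and 11.53 and 11.59 starved, a rise of 0.63 ± 0.12 (adjusted p = 0.000105, limma), and MRP7 rose by 0.59 ± 0.10 (adjusted p = 4.25e-05, limma). RSM22 rose by 0.65 ± 0.21, a call lost without the same 2 arrays (adjusted p = 0.061 and 0.123).

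Set across total and polysome RNA of the 3 strains, which are 6 comparisons without shared arrays, 56 of the 66 genes (84.8%) fell in at least 1 and 11 (16.7%) fell in all 6. Of all 5338 genes 45.8% fell in at least 1 and 15.5% in all 6, so the share of the 66 genes that fell in all 6 was near that of all genes. These 11 were the large subunit genes MRPL13, MRPL17, MRPL19, MRPL20, MRPL39 and MRPL40 and the small subunit genes MRP4, MRPS8, MRPS35, RSM23 and RSM27. Of the 66 genes 11 (16.7%) rose in at least 1 and only RSM10 (1.52%) in all 6, beside 46.5% and 17% of all genes. The rise of RSM10 was not called in MAS5 signals of wild-type total, wild-type polysome and msn5 polysome RNA, as given above.

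In non-polysome RNA of the mutants, where the fed arrays stood apart, 13 of the 66 genes fell and 3 rose in msn5, beside 31.3% and 26.6% of all genes. In mtr10 7 fell and 18 rose, beside 23.6% and 25.8%. Both counts moved with single arrays, from 7 without the first fed array to 22 without the first starved array for the genes that fell in msn5, and down to 8 without the second fed array for those that rose in mtr10. MRPS16 read 12.63 and 12.37 fed and 12.08 and 11.75 starved in msn5 and 12.51 and 12.50 against 11.93 and 11.95 in mtr10, without overlap in either strain (-0.59 ± 0.13 and -0.56 ± 0.13; adjusted p = 0.000671 and 0.00136, limma). RSM10 read 12.20 and 12.05 fed and 13.19 and 12.97 starved in msn5 and 12.75 and 12.54 against 13.44 and 13.39 in mtr10, again without overlap (0.96 ± 0.09 and 0.77 ± 0.09; adjusted p = 2.07e-08 and 1.01e-06, limma). MRP20 (YDR405W), whose bacterial counterpart L23 sits at the exit of the tunnel, changed by -0.64 ± 0.12 in msn5 (adjusted p = 0.000108, limma), and RSM18 (YER050C), the counterpart of bacterial S18, by -0.50 ± 0.13 in mtr10 (adjusted p = 0.00255, limma). What part the fed arrays have in these values was not tested.

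**Figure D3:**
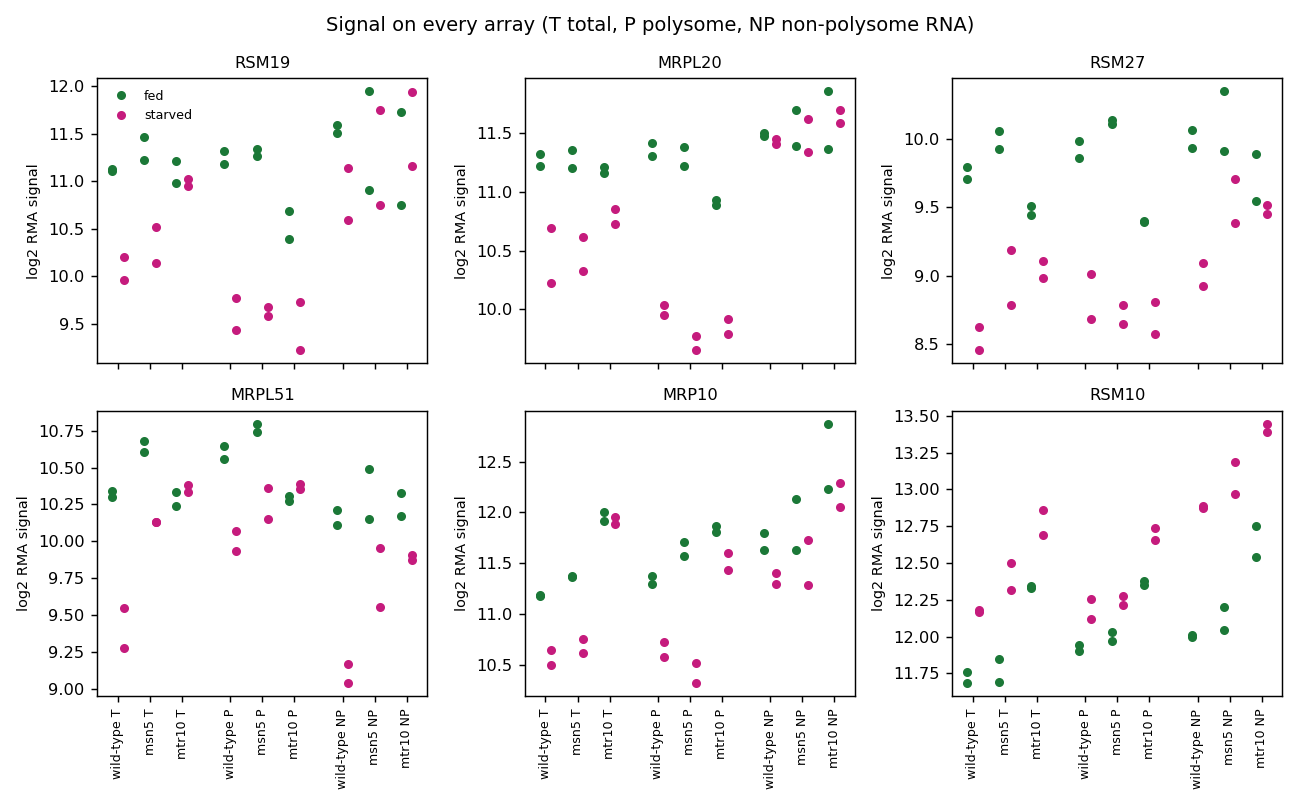
Log2 RMA signal of RSM19, MRPL20, RSM27, MRPL51, MRP10 and RSM10 on all 36 arrays (T total, P polysome, NP non-polysome RNA; green fed, magenta starved; each panel has its own y axis in log2 units). MRPL20 falls from 11.42 and 11.31 to 9.95 and 10.04 in wild-type polysomes while its non-polysome points stay together, and MRP10 stays at 11.95 and 11.89 in starved mtr10 total RNA against 10.49 and 10.65 in wild-type.

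Next, the polysome pool was set against the non-polysome pool of the same strain and condition. In fed wild-type cells the 66 genes were spread over both sides, with 13 higher and 16 lower in polysomes, beside 26.5% and 24.5% of all genes, and a median of -0.09. MRPL15 (YLR312W-A) and MRPL3 (YMR024W), large subunit proteins related to ribonuclease III, were among the lowest in polysomes. MRPL15 read 10.41 and 10.37 in polysome and 11.14 and 11.30 in non-polysome RNA, a difference of -0.83 ± 0.09 (adjusted p = 7.79e-08, limma). MRPL3 read 11.05 and 11.08 against 11.92 and 11.89, a difference of -0.84 ± 0.10 (adjusted p = 3.68e-07, limma), and RSM22 differed by -0.85 ± 0.21 (adjusted p = 0.00167, limma). Both pools were clear of each other in these genes. On the other side MRPS18 (YNL306W), the counterpart of bacterial S11, read 11.74 and 11.74 in polysome and 11.02 and 11.08 in non-polysome RNA, a difference of 0.69 ± 0.11 (adjusted p = 1.06e-05, limma). MRPL8 (YJL063C), the counterpart of bacterial L17, read 11.57 and 11.56 against 10.98 and 11.01, a difference of 0.57 ± 0.10 (adjusted p = 6.34e-05, limma).

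In starved wild-type cells 37 of the 66 genes were lower and 6 higher in polysomes, beside 29% and 34.1% of all genes, with a median of -0.41 against 0.04 over all genes. Of the 127 cytosolic ribosomal protein genes 75 were lower and 0 higher, with a median of -0.37. MRPL20 read 9.95 and 10.04 in polysome and 11.41 and 11.45 in non-polysome RNA, a difference of -1.43 ± 0.15 or 2.7-fold lower (adjusted p = 4.6e-08, limma). MRPL1 (YDR116C), the counterpart of bacterial L1, read 10.13 and 10.20 against 11.47 and 11.62, a difference of -1.38 ± 0.11 (adjusted p = 7.49e-10, limma). MRPL11 (YDL202W), the counterpart of bacterial L10, read 10.17 and 10.06 against 11.41 and 11.50, a difference of -1.34 ± 0.11 (adjusted p = 9.42e-10, limma). The pools were more than 1 log2 unit apart in each of these large subunit genes. A few genes lay on the polysome side. MRPL51 read 9.94 and 10.07 in polysome and 9.17 and 9.04 in non-polysome RNA, a difference of 0.90 ± 0.12 (adjusted p = 1.16e-06, limma). MRPL22 differed by 0.83 ± 0.09 and MRPS16 by 0.60 ± 0.13 (adjusted p = 1.41e-07 and 0.000408), and none of these 3 genes had overlapping pools.

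The change of that difference on starvation was tested as a contrast of 4 groups. In wild-type 25 of the 66 genes shifted away from polysomes and 4 shifted towards them, beside 16.4% and 23.3% of all genes, with a median of -0.34 against 0.08 over all genes. The 127 cytosolic ribosomal protein genes had a median of -0.34 as well, with 29 shifted away and 0 towards. MRPL20 shifted by -1.31 ± 0.21 (adjusted p = 0.0001, limma): its polysome signal fell from 11.42 and 11.31 to 9.95 and 10.04 while its non-polysome signal was 11.50 and 11.48 against 11.41 and 11.45. MRP1 (YDR347W), a mitochondria-specific small subunit protein related to superoxide dismutase, read 11.47 and 11.54 fed and 10.37 and 10.87 starved in polysomes and 11.09 and 11.20 against 11.32 and 11.25 outside them, a shift of -1.02 ± 0.20 (adjusted p = 0.000426, limma). MRPL8 shifted by -0.997 ± 0.14 (adjusted p = 3.05e-05, limma). MRP20 shifted the other way by 0.65 ± 0.17 (adjusted p = 0.00483, limma), with polysome signals of 11.49 and 11.43 fed and 11.45 and 11.55 starved and non-polysome signals of 11.85 and 11.68 against 11.02 and 11.28. Its polysome arrays overlapped between conditions and its non-polysome arrays did not. MRPS16 and MRPL51 also shifted towards polysomes (0.50 ± 0.19 and 0.46 ± 0.17; adjusted p = 0.0364 and 0.0341, limma), but those calls were each lost in 5 of 8 fits without 1 array, with adjusted p up to 0.218 and 0.11 (the arrays were the first fed and second starved non-polysome arrays and both fed and the second starved polysome arrays). In MAS5 signals these 3 upward shifts were 0.34, 0.13 and 0.01, none of them called.

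In the mutants, the comparisons of starved pools do not use the arrays that stood apart. In starved msn5 46 of the 66 genes were lower and 2 higher in polysomes, beside 31.6% and 36% of all genes, with a median of -0.60. MRPL20 read 9.65 and 9.77 in polysome and 11.63 and 11.34 in non-polysome RNA of starved msn5, and MRPL15 read 9.57 and 9.48 against 11.14 and 11.22, differences of -1.77 ± 0.15 and -1.65 ± 0.09 (adjusted p = 1.61e-09 and 6.23e-12, limma). In starved mtr10 45 were lower and 5 higher, beside 32.9% and 35.5%, with a median of -0.67. Of the 127 cytosolic ribosomal protein genes 114 were lower in starved msn5 and 104 in starved mtr10, with medians of -0.56 and -0.52. RSM19 read 9.22 and 9.73 in polysome and 11.93 and 11.16 in non-polysome RNA of starved mtr10, and MRPL39 read 9.52 and 10.20 against 11.86 and 11.61, differences of -2.08 ± 0.33 and -1.87 ± 0.20 (adjusted p = 1.14e-05 and 4.01e-08, limma). No polysome array of these genes reached a non-polysome array of the same strain. MRPL51 lay on the polysome side in both, by 0.50 ± 0.12 in msn5 and 0.48 ± 0.12 in mtr10 (adjusted p = 0.000837 and 0.00116, limma), and so did MRPL22, by 0.74 ± 0.09 and 0.42 ± 0.09 (adjusted p = 4.85e-07 and 0.000394, limma). In MAS5 signals MRPL51 differed by 0.27 and 0.33 and MRPL22 by 0.11 and 0.05, and none of the 4 was called.

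The remaining pool comparisons of the mutants rest on the fed non-polysome arrays that stood apart and cannot be given without them. In fed msn5 14 of the 66 genes were higher and 18 lower in polysomes, beside 28.3% and 26.2% of all genes. In fed mtr10 8 were higher and 38 lower, beside 31.3% and 28.2%, and the lower count was 25 without the first of those non-polysome arrays. MRPL15 was low in fed polysomes of both strains, with 10.25 and 10.30 against 11.14 and 11.13 in msn5 and 9.84 and 9.78 against 11.08 and 11.001 in mtr10. MRPS18 was high in both, with 11.78 and 11.80 against 11.06 and 10.91 in msn5 and 11.19 and 11.40 against 10.99 and 10.79 in mtr10. Neither gene's pools overlapped in either strain. On starvation 42 genes shifted away from polysomes and 1 towards them in msn5, beside 18.6% and 25.2% of all genes. In mtr10 26 shifted away and 2 towards them, beside 15% and 17.4%, and the first of these counts was 14 without the second fed non-polysome array and 30 without the first. Of the 127 cytosolic ribosomal protein genes 83 shifted away in msn5 and 51 in mtr10. MRPL20 shifted by -1.53 ± 0.21 in msn5 and by -1.09 ± 0.21 in mtr10 (adjusted p = 1.71e-05 and 0.000735, limma).

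**Figure D4:**
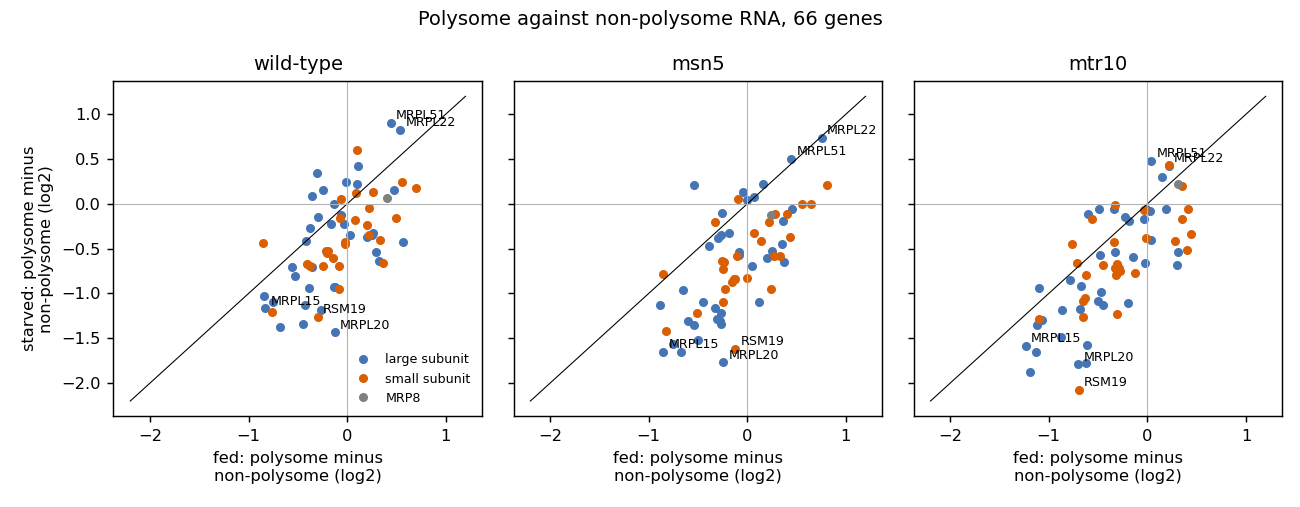
Polysome minus non-polysome difference (log2) of each of the 66 genes when fed (x axis) and when starved (y axis) in the 3 strains, with the line of equal values (blue large subunit, orange small subunit, grey MRP8). Of the 66 points 50 in wild-type, 56 in msn5 and 53 in mtr10 lie below the line, MRPL20 far below it and MRPL51 and MRPL22 among the 3 highest on each starved axis; the fed values of both mutants use the arrays that stood apart.

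Gene length differed between these genes and the rest. The 66 genes had a median annotated length of 706 bases, from 213 to 1887, against 1251 bases over all genes, in RefSeq gene records. Over all 5338 genes the starved wild-type pool difference correlated with log2 length (Pearson r = 0.38, across genes that share the same arrays), and genes shorter than 1000 bases had a median of -0.24 against 0.19 for the longer ones. Among the 66 genes the same correlation was 0.01, and the 56 shorter members had a median of -0.36 against -0.44 for the 10 longer ones. For the starved pools of msn5 and mtr10 it was 0.23 and 0.24 among the 66 genes, beside 0.45 and 0.49 over all genes. In starved minus fed total RNA of wild-type the short genes overall had a median of -0.18, the 56 short members -0.47 and the 10 longer members -0.29. The correlation with log2 length there was 0.48 among the 66 genes and 0.08 over all genes. In total RNA of msn5 and mtr10 it was 0.48 and 0.26 among the 66 genes. For the mtr10 response difference in total RNA it was -0.44, beside -0.05 over all genes. The part of length in any of these results was not tested further.

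In fed msn5 few of the 66 genes differed from wild-type, as did few of all genes. In fed total RNA 2 of the 66 were higher and 0 lower, beside 6.58% and 5.36% of all genes, and in fed polysomes 1 was higher and 0 lower, beside 5.47% and 3.69%. MRP8 was called in both. It read 12.54 and 12.53 in msn5 against 11.98 and 11.97 in wild-type total RNA (0.56 ± 0.10, adjusted p = 0.000379, limma), with no overlap, and in polysomes it differed by 0.38 ± 0.10 (adjusted p = 0.0126, limma), a call lost without any 1 of the 4 arrays (adjusted p up to 0.107). The other fed difference was MRPS16 in total RNA, 12.12 and 12.12 against 11.62 and 11.76 (0.43 ± 0.13, adjusted p = 0.0338, limma), which was also lost without any 1 array (adjusted p up to 0.262). In starved total RNA 6 were higher and 0 lower, beside 9.25% and 10.9% of all genes, a count of 2 without the second msn5 array and of at most 4 without any other. MRPS16 read 11.62 and 11.71 in starved msn5 against 10.63 and 10.96 in starved wild-type, a difference of 0.87 ± 0.13 (adjusted p = 6.5e-05, limma). MRPL51 read 10.13 and 10.13 against 9.27 and 9.55, a difference of 0.72 ± 0.12 (adjusted p = 0.000175, limma). In both genes all msn5 arrays lay above wild-type. The starved mtr10 arrays also lay above these same wild-type arrays, at 11.82 and 11.77 for MRPS16 and 10.38 and 10.34 for MRPL51.

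In starved non-polysome RNA of msn5 11 of the 66 were higher and 0 lower, beside 10.7% and 13.8% of all genes. MRPS16 read 12.08 and 11.75 against 11.05 and 10.91 (0.94 ± 0.13, adjusted p = 2.27e-05, limma), and MRPL51 read 9.96 and 9.56 against 9.17 and 9.04 (0.65 ± 0.12, adjusted p = 0.000417, limma). Neither gene's arrays overlapped, though the count of 11 was 4 without the first msn5 array, 19 without the second, and 0 when only these 2 groups were fitted. In starved polysomes of msn5 5 of the 66 were lower and 2 higher, beside 10.4% and 6.41% of all genes. Those counts were unsteady, with 0 lower genes without the second wild-type array and 0 when only these 2 groups were fitted. RSM24 (YDR175C), a small subunit protein without a bacterial counterpart, had the smallest p of the 5 and read 10.48 and 10.45 in msn5 against 10.75 and 11.05 in wild-type (-0.44 ± 0.10, adjusted p = 0.00395, limma; 0.121 without the second wild-type array).

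Mutant mtr10 was compared with wild-type in the same way. In fed total RNA 19 of the 66 were lower and 9 higher, beside 20.7% and 18.8% of all genes, with a median of -0.16. In fed polysomes 38 were lower and 7 higher, beside 20.2% and 19.4%, with a median of -0.43 against -0.02 over all genes. Without 1 array the count of lower genes in total RNA was 12 to 15, lowest without the first wild-type array, and that in polysomes 24 to 31, lowest without the first mtr10 array. Lower genes of the large subunit numbered 24 of 37 in fed polysomes, and of the small subunit 13 of 28.

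In the small subunit MRPS35 (YGR165W), without a bacterial counterpart, read 9.35 and 9.55 in fed mtr10 against 10.17 and 10.19 in wild-type (-0.73 ± 0.11, adjusted p = 1.11e-05, limma). MRPS9 (YBR146W), the counterpart of bacterial S9, read 11.03 and 10.95 against 11.77 and 11.64 (-0.72 ± 0.10, adjusted p = 3.82e-06, limma), and RSM26 (YJR101W), related to superoxide dismutase, read 10.59 and 10.66 against 11.35 and 11.27 (-0.69 ± 0.10, adjusted p = 1.08e-05, limma). Their mtr10 arrays lay wholly below wild-type. In fed polysomes MRPL39 read 10.51 and 11.01 against 11.78 and 11.78 (-1.02 ± 0.20, adjusted p = 0.000285, limma), and MRPL49 (YJL096W), the counterpart of bacterial L21, read 10.20 and 10.42 against 11.39 and 11.25 (-1.01 ± 0.13, adjusted p = 2.15e-06, limma), both without overlap. RSM26 was low in the same polysomes, with a difference of -0.97 ± 0.10 (adjusted p = 1.27e-07, limma).

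Higher genes in fed mtr10 included MRP10 (YDL045W-A), a small subunit protein of the twin-cysteine type without a bacterial counterpart. It read 12 and 11.92 in fed mtr10 total RNA against 11.18 and 11.19 in wild-type (0.78 ± 0.17, adjusted p = 0.000886, limma). MRPL28 (YDR462W), a mitochondria-specific large subunit protein, read 11.92 and 11.99 against 11.23 and 11.20 (0.74 ± 0.16, adjusted p = 0.000836, limma), and RSM10 read 12.33 and 12.35 against 11.76 and 11.68 (0.62 ± 0.09, adjusted p = 1.6e-05, limma). All fed mtr10 arrays of these genes lay above wild-type.

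In starved total RNA the balance of mtr10 against wild-type was the other way: 28 of the 66 genes were higher and 5 lower, beside 25.7% and 28.5% of all genes, with a median of 0.26 against -0.03 over all genes. MRP10 read 11.95 and 11.89 against 10.49 and 10.65, a difference of 1.35 ± 0.17 or 2.55-fold higher (adjusted p = 9e-07, limma). MRPL28 read 12.26 and 12.29 against 11.05 and 11.20, a difference of 1.15 ± 0.16 (adjusted p = 3.55e-06, limma). MRPL7 (YDR237W), the counterpart of bacterial L5, read 11.46 and 11.27 against 10.12 and 10.33, a difference of 1.14 ± 0.12 (adjusted p = 6.2e-08, limma). The mtr10 arrays of all 3 genes were well above wild-type. MRPS9, MRPS35 and MRP4 (YHL004W), the counterpart of bacterial S2, were lower in starved mtr10, with differences of -0.65 ± 0.10, -0.56 ± 0.11 and -0.45 ± 0.14 (adjusted p = 7.17e-06, 0.000117 and 0.00858, limma), and the call of MRP4 was lost without the second wild-type array (adjusted p = 0.0642). In the small subunit 13 genes were higher and 5 lower, with a median of 0.36, and in the large subunit 14 were higher and 0 lower, with a median of 0.15. The difference between subunits was not tested.

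In starved polysomes mtr10 had 16 genes higher and 20 lower than wild-type, beside 25.5% and 27.2% of all genes, with 11 lower genes without the second wild-type array. MRPL7 read 11.29 and 11.46 against 10.28 and 10.42 (1.02 ± 0.12, adjusted p = 2.7e-07, limma), and RSM7 (YJR113C), the counterpart of bacterial S7, read 10.53 and 10.58 against 11.30 and 11.27 (-0.73 ± 0.13, adjusted p = 8.41e-05, limma). Neither gene's arrays overlapped between strains. MRP10 and MRP1 were higher by 0.87 ± 0.17 and 0.74 ± 0.14, and MRPL39 and MRPS9 were lower, with differences of -0.92 ± 0.20 and -0.77 ± 0.10. In starved non-polysome RNA 22 genes were higher and 2 lower, beside 25.9% and 26.5% of all genes. MRPL28 read 12.51 and 12.37 there against 11.43 and 11.13 (1.16 ± 0.16, adjusted p = 3.12e-06, limma). MRPS16 read 11.93 and 11.95 against 11.05 and 10.91 (0.96 ± 0.13, adjusted p = 2.88e-06, limma), and MRPL51 read 9.91 and 9.875 against 9.17 and 9.04. Both genes were also higher in starved non-polysome RNA of msn5, against the same wild-type arrays.

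**Figure D5:**
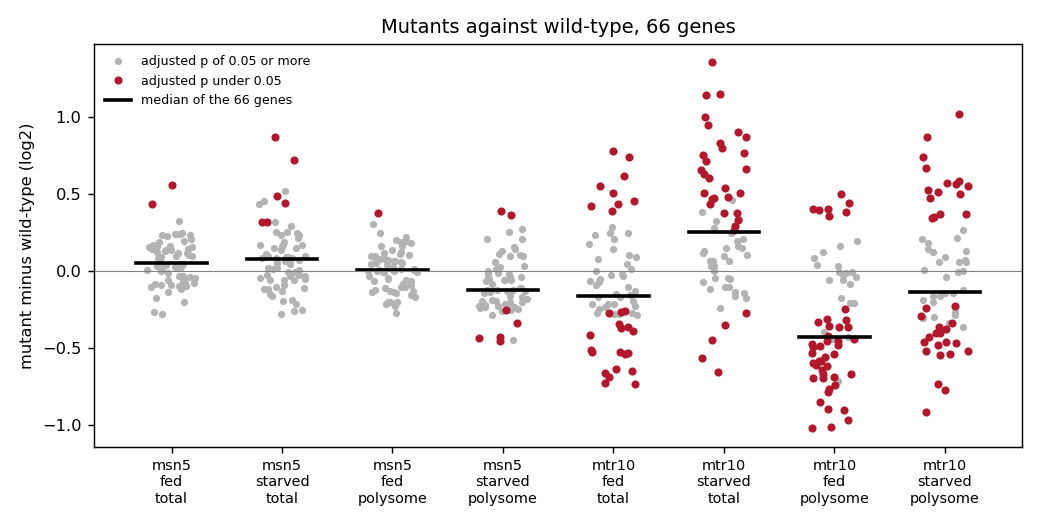
Difference of each mutant from wild-type (log2) for each of the 66 genes in fed and starved total and polysome RNA; each point is a gene, red where limma's adjusted p was under 0.05, and the bar is the median of the 66. The bar lies at -0.43 for mtr10 fed polysomes and at 0.26 for mtr10 starved total RNA, and near 0 for msn5 total RNA.

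Whether the starvation response itself differed between strains was tested by the interaction of strain and condition. For msn5, 0 of the 66 genes were called higher or lower in total RNA and 0 in polysomes, and 2 and 5 of them had an unadjusted p under 0.05 in limma. Over all genes 0.15% were called higher and 0.543% lower in total RNA, and 0.131% and 0.88% in polysomes. MAS5 signals gave 0 higher genes in total RNA and 1 lower gene in polysomes.

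For mtr10, 14 of the 66 genes responded less negatively or more positively than in wild-type total RNA and 0 the other way, beside 6.41% and 7.89% of all genes. The median difference of the response was 0.38 against 0.03 over all genes, and 10 of the 14 genes were of the large subunit and 3 of the small subunit, with MRP8 as the remaining one. The 13 other mitochondrial ribosomal protein genes had a median of 0.37, with 1 called higher. For the 8 mitochondrial translation factors it was 0.38, with 4 higher. The median was 0.10 for mitochondrial tRNA charging, 0.12 for the respiratory chain and ATP synthase and 0.26 for cytosolic ribosome biogenesis. For cytosolic ribosomal protein genes it was -0.14. MRPL51 went from 10.34 and 10.24 to 10.38 and 10.34 in mtr10 and from 10.30 and 10.34 to 9.27 and 9.55 in wild-type, a difference of 0.98 ± 0.17 (adjusted p = 0.000448, limma). Its fed and starved arrays did not overlap in wild-type, and in mtr10 they met at 10.34 and 10.24 against 10.38 and 10.34. MRPL44 went from 11.22 and 11.16 to 11.06 and 11.15 in mtr10 against the fall given above in wild-type, a difference of 0.94 ± 0.26 (adjusted p = 0.017, limma). MRPL33 (YMR286W), the counterpart of bacterial L30, read 10.79 and 10.91 fed and 10.87 and 10.77 starved in mtr10 and 10.83 and 10.85 against 9.85 and 10.05 in wild-type, a difference of 0.86 ± 0.28 (adjusted p = 0.0436, limma). The call of MRPL44 was lost in 4 of 8 fits without 1 array and that of MRPL33 in all 8, with adjusted p up to 0.0818 and 0.145, and neither was called in MAS5 signals (1.07 and 0.78). For MRPL44 these were the fits without the second fed or second starved mtr10 array and without the second fed or first starved wild-type array. The MAS5 fit of total RNA held 1 wild-type array per condition, which limits its calls and counts. The count of 14 lay between 6 without the second fed mtr10 array and 18 without the second starved wild-type array, and it was 3 in MAS5 signals and 24 when only the 4 groups were fitted.

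In polysomes 15 of the 66 genes responded less negatively or more positively in mtr10 and 0 the other way, beside 6.84% and 9.55% of all genes, with a median difference of 0.29. The median was 0.375 for the other mitochondrial ribosomal protein genes, 0.39 for mitochondrial translation factors and 0.33 for cytosolic ribosome biogenesis. It was 0.075 for mitochondrial tRNA charging, 0.145 for the respiratory chain and ATP synthase and -0.29 for cytosolic ribosomal protein genes. MRPL51 read 10.31 and 10.27 fed and 10.36 and 10.39 starved in mtr10 and 10.65 and 10.56 against 9.94 and 10.07 in wild-type, a difference of 0.68 ± 0.17 (adjusted p = 0.00713, limma). MRPL16 read 10.91 and 10.96 against 11.53 and 11.59 in mtr10 and 11.31 and 11.21 against 11.21 and 11.22 in wild-type, a difference of 0.68 ± 0.17 (adjusted p = 0.0073, limma). Its starved arrays lay above the fed ones in mtr10 and overlapped them in wild-type. MRPL7 read 11.51 and 11.54 against 11.29 and 11.46 in mtr10 and 11.16 and 11.17 against 10.28 and 10.42 in wild-type, a difference of 0.66 ± 0.16 (adjusted p = 0.00759, limma). The count of 15 was as low as 5, without the first fed mtr10 array, and was 6 in MAS5 signals.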

How the data were processed

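Total, polysome and non-polysome RNA of 3 yeast strains, fed or starved, was measured on 36 Affymetrix arrays, with 2 biological replicates per group as the labels state. The deposited series values are on a log2 scale, and RMA and affy are named, without versions, per the submitters' processing notes. All arrays share nearly one distribution (array medians 10.65 to 10.73). The authors also deposited MAS5 signals, which are intensity values; 36 columns of detection p-values beside them were not used. Of 5684 probe sets, 5338 genes were left after 93 control probe sets and 212 without a gene were set aside and the brightest probe set of each gene was kept, and the 66 members each had 1 probe set. RefSeq names 67 such genes, and MRP35 was not analysed here.

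One limma fit (version 3.58.1, R 4.3.3) covered all 18 groups with 18 residual degrees of freedom, and 32 contrasts were each adjusted by the Benjamini-Hochberg method over 5338 genes. The 2 contrasts of the polysome response between strains were added after the data were seen. In each contrast the called members with the largest changes were selected for naming, up to 3 in each direction. In contrasts of 2 groups their arrays had to be without overlap. In contrasts of 4 groups both differences by replicate number had to have the sign of the estimate. In wild-type starved minus fed total RNA up to 6 falls and 4 rises were selected. Not all selected members are printed for every contrast. Also named were MRP8 and up to 3 called genes of each other list, by p. The fit was tested on simulated data, but no result of that test is given or used here. The number of arrays limits the precision. Labels do not say that equal replicate numbers share a culture or day, so the numbers do not pair the arrays in the main fit. Same-numbered deviations correlated from -0.58 to 0.63 over 25 comparisons, and 13 of these values were over 0.1. For starvation in non-polysome RNA they were 0.20 in wild-type, 0.57 in msn5 and 0.63 in mtr10. In polysomes they were -0.04, -0.38 and 0.51. Whether the arrays are paired was not tested further. The replicate numbers were used only in the naming rule for contrasts of 4 groups and in the replicate block. Alternatives were MAS5 signals, only the groups compared, each array left out, the replicate block, and leaving out the fed non-polysome arrays of the mutants. In MAS5 data 2 columns, the first fed and first starved wild-type total ones, matched the opposite condition in the series values (r of -0.42 and -0.36 with their named group, over genes) and were left out, so 1 array per group remains there. Members and lists were chosen with earlier results of these data known. Software also included Python 3.11.15, pandas 2.3.3, numpy 2.4.6 and matplotlib 3.10.9.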

Additional observations from a re-analysis of the deposited data

Results flagged for a closer look

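The starvation response of mtr10 differed from that of wild-type in limma's interaction term for some mitochondrial ribosomal protein genes. In total RNA 14 of the 66 genes had a higher response in mtr10, beside 6.41% of all genes, and 0 had a lower one, beside 7.89%. The count was 3 in MAS5 signals and 6 to 18 without 1 array. MRPL51 differed by 0.98, MRPL44 by 0.94 and MRPL33 by 0.86 on the log2 scale, and the calls of MRPL44 and MRPL33 were lost in 4 and 8 of 8 fits without 1 array. In polysome RNA 15 of the 66 genes had a higher response, beside 6.84% of all genes, and 0 a lower one, beside 9.55%, with MRPL51 at 0.68, MRPL16 at 0.68 and MRPL7 at 0.66. That count was 6 in MAS5 signals and as low as 5 without the first fed mtr10 array. The MAS5 fit of total RNA held 1 wild-type array per condition, which limits its count. Median response differences of the 66 genes were 0.38 in total RNA and 0.29 in polysomes. Those of the other mitochondrial ribosomal protein genes were 0.37 and 0.375, and those of mitochondrial translation factors 0.38 and 0.39. The difference was thus not particular to the 66 genes. No test for single distant arrays was made, since each group holds 2 arrays.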

How the results depend on the processing

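The replicate block left all 32 counts within 1.5 times and all 152 calls of named members in place; leaving out the fed non-polysome arrays of the mutants did so for the 26 counts that could be fitted. In MAS5 signals the members that fell in wild-type total RNA numbered 24 (46 in RMA), those lower in mtr10 fed total RNA 9 (19), those higher in msn5 starved total RNA 2 (6), those lower in msn5 starved polysomes 2 (5), and those with a higher response in mtr10 3 in total RNA (14) and 6 in polysomes (15), with 1 lower response in msn5 polysomes (0). With only the groups compared in the fit, the counts were 2 for falls in msn5 non-polysome RNA (13), 5 for rises in mtr10 non-polysome RNA (18), 20 and 16 for shifts away from polysomes in msn5 (42) and mtr10 (26), 5 and 2 for genes higher in msn5 fed (2) and starved (6) total RNA, 0 for genes lower in msn5 starved polysomes (5), 0 for genes higher in msn5 starved non-polysome RNA (11), and 24 for the mtr10 total response (14). With each array left out, the counts ranged from 4 to 5 for falls in mtr10 total RNA, 7 to 22 for falls in msn5 and 8 to 17 for rises in mtr10 non-polysome RNA, 25 to 38 for genes lower in fed mtr10 polysomes than outside, and 14 to 30 for shifts away from polysomes in mtr10. Against wild-type they ranged from 1 to 1 (msn5 fed total, higher), 12 to 15 (mtr10 fed total, lower), 2 to 4 (msn5 starved total, higher), 0 to 0 (msn5 fed polysome, higher), 24 to 31 (mtr10 fed polysome, lower), 0 to 5 (msn5 starved polysome, lower), 11 to 19 (mtr10 starved polysome, lower) and 4 to 19 (msn5 starved non-polysome, higher). For the response differences they were 6 to 18 (mtr10 total), 5 to 15 (mtr10 polysome) and 0 to 1 (msn5 polysome, lower). Small medians changed sign: without 1 array those of msn5 ranged from -0.222 to 0.049 for non-polysome starvation, and against wild-type from -0.008 to 0.137 in starved total, -0.022 to 0.044 in fed polysome and -0.02 to 0.25 in starved non-polysome RNA. RSM10 in wild-type polysomes reversed in MAS5 signals (-0.14), and the median msn5 response difference in total RNA was -0.055 there and ranged from -0.065 to 0.102 without 1 array. Other medians moved beyond the replicate spread with the same sign. In MAS5 signals they were -0.140 (starvation, mtr10 total), -0.782 (starvation, msn5 polysome), -0.047 (fed wild-type pools), 0.10 and 0.052 (msn5 against wild-type, fed total and polysome) and -0.074 (mtr10 against wild-type, fed total). Without 1 array they were -0.482 (starvation, wild-type polysome), 0.110 (msn5 fed total) and, for the mtr10 difference from wild-type, -0.353 (fed polysomes) and -0.001 (starved polysomes). The filter on detection p-values was not run. Of the calls of named members, MAS5 signals left 116 and lost 35, and the fits without 1 array left 572 and lost 120. Some of these fits hold fewer arrays or groups, and the cause of the changes was not tested.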
